A study of Mus musculus with 12 samples.

Results

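The IL-6 family cytokine genes Il6, Lif and Osm and the receptor chain genes Il6st, Il6ra and Lifr were followed in macrophages with and without Parp14. These 6 genes were taken by name from the 24421 gene symbols of the expression table, whatever their values. The cells were RAW 264.7, an established mouse macrophage-like line of BALB/c origin, grown in serum-containing medium. Of the 12 mRNA sequencing libraries, 2 came from each of 6 groups. These were Parp14 -/- cells (KO) given LPS for 2 h, untreated KO cells, wild-type (WT) cells given LPS for 2 h together with a Jak inhibitor, WT cells given LPS for 2 h, WT cells given the Jak inhibitor for 2 h and untreated WT cells. LPS is a bacterial cell wall component sensed by Toll-like receptor 4, and PARP14 is an ADP-ribosyltransferase with roles in interferon and interleukin-4 responses. The sources used here do not name the inhibitor or give its dose, the dose of LPS or how many KO clones were used, and the inhibitor was analysed in WT cells only. Loss of Parp14 and any other difference between the KO and WT lines cannot be told apart.

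Cytokines of the IL-6 family signal through receptor complexes that share gp130, the protein of Il6st. IL-6 first binds the alpha chain encoded by Il6ra, which brings it to gp130. LIF uses a pair of gp130 and the LIF receptor (Lifr), and oncostatin M (Osm) in the mouse mainly uses gp130 with the oncostatin M receptor (Osmr). Jak kinases bound to these receptors phosphorylate STAT3, and STAT3 in turn raises Socs3, an inhibitor of gp130 signalling. In macrophages, Toll-like receptors raise the ligand genes within hours through NF-kB and other early factors.

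Levels are given as CPM over the reads assigned to genes, and comparisons between genes as CPM per kilobase of exon. The libraries held 35940669 to 45662896 gene reads. Parp14 itself averaged 37.7 ± 3.96 CPM in KO LPS cells against 367 ± 73.8 CPM in WT LPS cells, and 11.0 ± 1.39 CPM in untreated KO cells against 88.1 ± 16.5 CPM in untreated WT cells (SD, n = 2 each). Of 10 macrophage markers, 9 averaged at least 1 CPM in every group; Mertk, at no more than 0.206 CPM, did not. Fibroblast markers summed to at most 0.028 CPM, B cell markers to at most 0.301 CPM, neutrophil markers to at most 0.747 CPM and endothelial markers to at most 0.575 CPM per library, and epithelial markers had no reads. The T cell list summed to 2.98 to 4.66 CPM in untreated KO cells and 11.9 to 22.3 CPM in untreated WT cells, almost wholly Cd28, while Cd3e had no reads. The share of alignments without a unique position was 33.2 to 34.9% in KO libraries and 28.6 to 32.1% in WT libraries. The part of these differences in the results on KO against WT cells was not tested. In such bulk RNA, fewer cells with a transcript and less transcript per cell cannot be told apart.

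The promoters of the most strongly induced ligand genes are shown because NF-kB, C/EBP beta and AP-1 are known activators of Il6. Each sequence is the 250 bases before the RefSeq transcription start on the plus strand of GRCm38.p6, at chr5:30012864-30013113 for Il6 and chr11:4257318-4257567 for Lif. Capitals mark every match, on either strand, to the 6 motifs searched, which were NF-kB (GGG, any 5 bases, CC), C/EBP (TTGNNCAA), AP-1 (TGANTCA), the CRE core (ACGTCA), GAS (TTCNNNGAA) and ISRE (GAAA, any 2 bases, GAAA).
Il6: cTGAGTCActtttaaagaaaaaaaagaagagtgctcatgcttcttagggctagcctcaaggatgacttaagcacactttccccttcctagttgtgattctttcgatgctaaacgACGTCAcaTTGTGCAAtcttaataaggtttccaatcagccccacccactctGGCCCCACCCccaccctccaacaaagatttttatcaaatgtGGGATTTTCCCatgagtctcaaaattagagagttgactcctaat
Lif: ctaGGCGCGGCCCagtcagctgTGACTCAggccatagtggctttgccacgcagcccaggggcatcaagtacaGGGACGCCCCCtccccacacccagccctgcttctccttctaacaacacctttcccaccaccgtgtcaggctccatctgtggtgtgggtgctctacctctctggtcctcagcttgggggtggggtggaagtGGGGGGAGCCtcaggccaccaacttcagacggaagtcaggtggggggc
The Il6 window held 3 NF-kB matches, of which the pair from base 44 to base 34 before the start overlapped on opposite strands around GGGATTTTCC. It also held a C/EBP match, TTGTGCAA, from base 128 to base 121, a CRE match from base 136 to base 131 and an AP-1 match from base 249 to base 243. The Lif window held 4 NF-kB matches, of which a pair overlapped from base 178 to base 168, and an AP-1 match from base 228 to base 222. Neither window held a GAS or ISRE match, the letters read by STAT and interferon factors. Of the receptor chain genes, Il6st held none of the 6 motifs, Il6ra held 2 overlapping NF-kB matches, and the windows of Lifr held 3 and 5 NF-kB matches. These short motifs are common: among 32536 promoters of the same length, 46.0% held the NF-kB letters, 5.61% the C/EBP letters, 6.73% the AP-1 letters, 6.5% the CRE letters, 7.04% the GAS letters and 2.98% the ISRE letters. The motifs were chosen after the sequences had been seen, and a match describes letters, not binding.

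Among the ligands, Il6, a pyrogenic cytokine of the acute phase, was near silent until LPS was added. The gene lies on the plus strand of chromosome 5, from 30013114 to 30019981 in GRCm38 (ENSMUSG00000025746.11). KO LPS cells held 45.2 and 34.0 CPM of Il6 and untreated KO cells 0.0501 and 0.0784 CPM. With the inhibitor, Il6 stood at 29.3 and 16.7 CPM with LPS and at 0.0773 and 0.0735 CPM without LPS. WT LPS cells held 34.1 and 24.6 CPM and untreated WT cells 0.101 and 0.05 CPM. All LPS libraries therefore stood far above all libraries without LPS, in which the gene had 5 reads over the untreated KO pair and 6 over the untreated WT pair. In each LPS group replicate 1 was above replicate 2, by 1.33-fold in KO, 1.76-fold with the inhibitor and 1.39-fold in WT. The WT LPS pair overlapped both the KO LPS pair and the pair with inhibitor and LPS. The KO LPS pair stood above the pair with inhibitor and LPS, without overlap.

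Lif, which keeps mouse embryonic stem cells undifferentiated and acts on many tissues in inflammation, was the most abundant ligand transcript after LPS. It lies on the plus strand of chromosome 11, from 4257557 to 4272514 (ENSMUSG00000034394.14). KO LPS cells held 1592 and 1518 CPM of Lif and untreated KO cells 2.31 and 1.99 CPM. WT cells with the inhibitor held 837 and 788 CPM with LPS and 0.799 and 0.907 CPM without LPS. WT LPS cells held 805.8 and 804.8 CPM and untreated WT cells 1.14 and 0.8 CPM. The KO libraries were above the WT libraries in either state, without overlap, while the inhibitor groups overlapped their WT counterparts. Per kilobase of exon, Lif after LPS ranked 119 of 23309 genes in KO cells and 247 in WT cells, and it ranked 10036 in untreated KO cells and 10681 in untreated WT cells. Its level per kilobase after LPS was 21.9 times that of Il6 and 29.1 times that of Osm in KO cells, and 15.3 times and 39.1 times in WT cells.

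Osm, the neighbour of Lif, ends 16530 bases before Lif starts, with no annotated gene between them, and lies on the same strand at 4236420 to 4241026 (ENSMUSG00000058755.3). Its product, oncostatin M, is made by activated myeloid cells. KO LPS cells held 30.6 and 25.2 CPM of Osm and untreated KO cells 2.93 and 2.56 CPM. With the inhibitor the levels were 11.2 and 10.1 CPM with LPS and 2.86 and 2.67 CPM without LPS. WT LPS cells held 11.5 and 10.0 CPM and untreated WT cells 3.63 and 2.25 CPM. The KO LPS pair stood above all other libraries, while without LPS the untreated KO, inhibitor and untreated WT groups overlapped. Before LPS, Osm was the most abundant of the 3 ligands per kilobase, with Lif at 0.408 of its level in untreated KO cells and 0.173 in untreated WT cells.

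Among the receptor chains, Il6st (gp130) and Il6ra were expressed in every library and stood lower wherever LPS had been given. Il6st lies on the plus strand of chromosome 13, from 112464070 to 112510086 (ENSMUSG00000021756.12). It stood at 38.4 and 41.1 CPM in KO LPS cells and 72.5 and 77.4 CPM in untreated KO cells. With the inhibitor Il6st stood at 45.3 and 48.9 CPM with LPS and 101.9 and 104.2 CPM without LPS. In WT LPS cells it stood at 47.632 and 49.999 CPM and in untreated WT cells at 106 and 104 CPM. The KO pair was below the WT pair in both states, with no overlap, and the inhibitor pairs overlapped the WT pairs.

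Il6ra, the ligand-binding chain for IL-6, lies on the minus strand of chromosome 3, from 89864059 to 89913196 (ENSMUSG00000027947.11). Of its exonic bases, 242 overlap the antisense gene Gm42809, which was not analysed here, and whether reads were counted by strand is not stated. KO LPS cells held 49.0 and 46.8 CPM and untreated KO cells 129.8 and 130.5 CPM. With the inhibitor Il6ra stood at 38.7 and 44.5 CPM with LPS and 139 and 129.2 CPM without LPS. WT LPS cells held 47.5 and 44.5 CPM and untreated WT cells 141.6 and 129.6 CPM. Libraries thus fell into a high set without LPS and a low set with it, and KO and WT overlapped in each set. After LPS the inhibitor pair lay below the WT pair by a narrow gap, 44.47 against 44.54 CPM, a difference that was not called. Per kilobase, Il6ra exceeded Il6st in every group, by 2.23 times in untreated KO cells and 1.66 times in untreated WT cells, and by 1.55 times in KO LPS cells and 1.21 times in WT LPS cells.

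Lifr, the LIF-binding partner of gp130, was scarce. It lies on the plus strand of chromosome 15, from 7090614 to 7197489 (ENSMUSG00000054263.12). KO LPS cells held 0.751 and 0.632 CPM and untreated KO cells 4.69 and 3.32 CPM. In the inhibitor groups Lifr stood at 0.438 and 0.698 CPM with LPS and 0.773 and 0.956 CPM without LPS. WT LPS cells held 0.657 and 0.561 CPM and untreated WT cells 0.558 and 0.825 CPM. The untreated KO pair, with 314 reads, stood above the other 10 libraries, which held 16 to 39 reads each. Per kilobase Il6st was 18.2 times as abundant as Lifr in untreated KO cells and 148 times in untreated WT cells. Osmr, the preferred partner of gp130 for mouse oncostatin M, had no reads in any library.

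**Figure D1:**
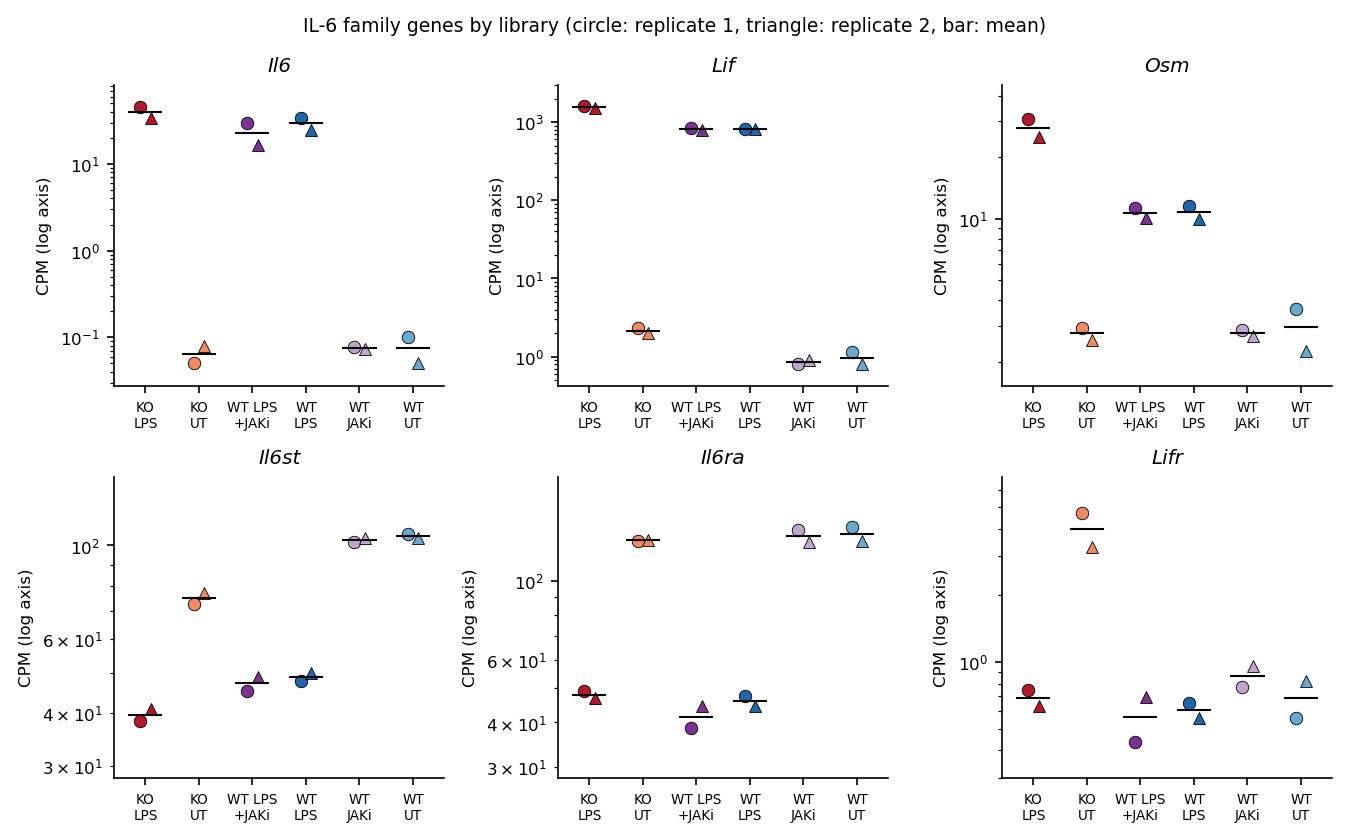
Level of each of the 6 genes by library, in CPM on a log axis, with KO LPS, untreated KO, WT LPS plus inhibitor (JAKi), WT LPS, WT inhibitor and untreated WT groups from left to right; circles are replicate 1, triangles replicate 2 and bars the group mean. The ligand genes are high in all LPS groups, Il6st and Il6ra are low there, and Lifr is high in the untreated KO pair alone, at 4.69 and 3.32 CPM.

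The 2 h response to LPS was tested by limma on log2(CPM + 1), with Benjamini-Hochberg adjustment over 10899 tested genes and a threshold of 0.05 for a call. All 6 members were tested; Il6 passed the filter on low values only through its LPS groups and Lifr only through untreated KO cells, so their calls in comparisons with those groups were favoured by the filter. In KO cells 3 members were called higher and 3 lower, where 66.7% of all genes were called (13.9% higher, 52.7% lower). In WT cells 3 were called higher and 2 lower, where 67.3% of all genes were called (13.7% higher, 53.6% lower). A call alone therefore says little here, and the sizes carry the comparison.

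Lif rose most of the 6, by 8.95 ± 0.090 (SE) on the log2 scale in KO cells (limma adjusted p = 3.61e-12) and by 8.68 ± 0.090 in WT cells (limma adjusted p = 4.83e-12). It ranked 2 of 10899 genes by size of increase in KO cells and 3 in WT cells. As ratios of mean CPM, Lif was 724 times higher with LPS in KO cells (95% counting interval 621 to 845) and 830.0 times higher in WT cells (665 to 1053). Il6 rose by 5.24 ± 0.24 in KO cells (limma adjusted p = 9.21e-08) and 4.80 ± 0.24 in WT cells (limma adjusted p = 1.53e-07), which ranked 16 and 29. Since its baseline rests on 5 and 6 reads, the ratios of its means, 616 in KO and 388 in WT, carry wide counting intervals of 262 to 1885 and 180.0 to 1070.1. In KO cells the interval of Il6 spans that of Lif. Between KO libraries numbered 1, Il6 rose 902-fold and Lif 690-fold. Between those numbered 2, they rose 434-fold and 764-fold. The fitted change of Il6 also depends on the pseudocount: with 0.25 it was 6.97 in KO and 6.49 in WT cells. By edgeR Il6 rose by 9.49 in KO and 8.85 in WT cells, and Lif by 9.79 and 10.0. The order of Lif and Il6 in KO cells was therefore not settled. Osm rose least of the ligands, by 2.94 ± 0.16 in KO cells (limma adjusted p = 2.91e-07) and 1.60 ± 0.16 in WT cells (limma adjusted p = 1.58e-05), or 10.2-fold and 3.66-fold in mean CPM. These intervals cover counting error only.

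The receptor chains moved the other way. Il6ra fell by 1.42 on the log2 scale in KO cells (SE 0.080, limma adjusted p = 3.4e-07) and by 1.54 in WT cells (SE 0.080, limma adjusted p = 2.14e-07), leaving 0.368 and 0.339 of its mean CPM without LPS. Il6st fell by 0.90 in KO cells (SE 0.065, limma adjusted p = 1.72e-06) and by 1.09 in WT cells (SE 0.065, limma adjusted p = 5.08e-07), leaving 0.530 and 0.464. Lifr fell by 1.55 in KO cells (SE 0.15, limma adjusted p = 1.12e-05), to 0.173 of its untreated level, which brought it to the WT range. In WT cells its change was -0.07 (95% interval -0.40 to 0.27, limma adjusted p = 0.705), and its sign turned with other scalings. The median gene had a log2 change of -0.29 in KO cells and -0.30 in WT cells. When libraries were scaled by the median of ratios, these medians became -0.03 and -0.04, and all genes called were 2911 higher and 3608 lower in KO cells in place of 1518 and 5748, and 2873 higher and 3537 lower in WT cells in place of 1493 and 5839. Under that scaling the receptor genes were still called lower, Il6ra by -1.15 in KO and -1.25 in WT cells and Il6st by -0.63 in KO and -0.81 in WT cells.

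**Figure D2:**
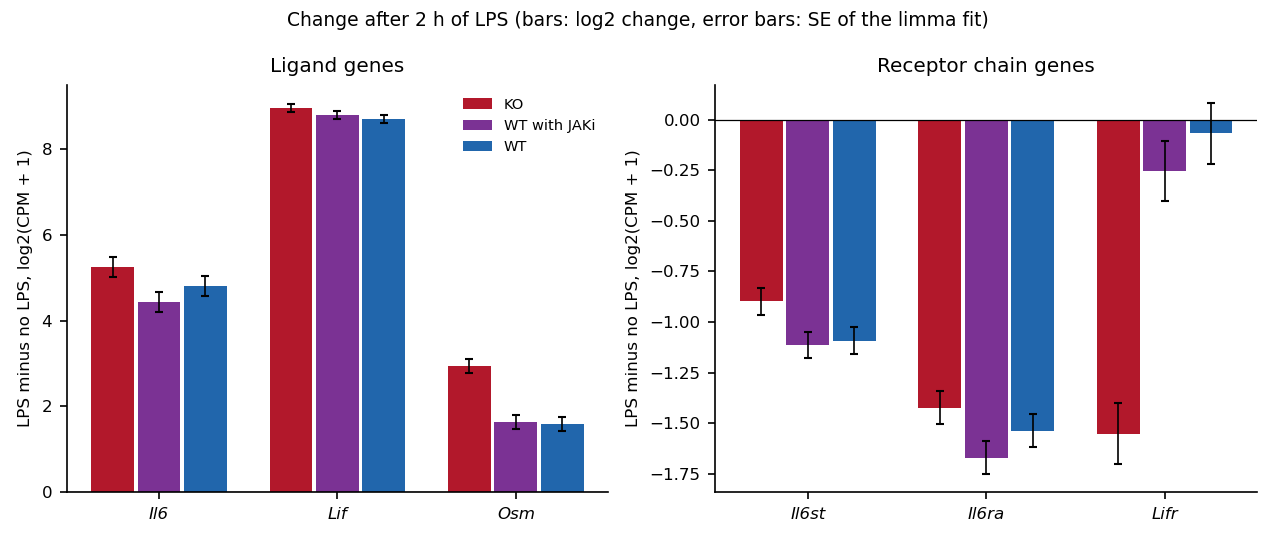
Log2 change after 2 h of LPS for the ligand genes (left) and the receptor chain genes (right) in KO cells, WT cells with inhibitor and WT cells; bars start at 0 and error bars are the SE of the limma fit. Lif rises by 8.68 to 8.95 in all 3 settings, Osm rises more in KO cells, and Lifr falls in KO cells by 1.55.

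The comparison of KO with WT cells before LPS asked whether the lines differed at rest. Lif was called higher in KO cells and Il6st lower, where 9.68% of all genes were called (4.31% higher, 5.37% lower). Lifr was also called higher, but it passed the filter on low values only through untreated KO cells, which favoured its call. Lifr averaged 4.004 ± 0.967 CPM in untreated KO cells and 0.691 ± 0.189 CPM in untreated WT cells (SD, n = 2 each), a log2 change of 1.56 ± 0.15 (SE; limma adjusted p = 0.000194). The ratio of means was 5.79 (95% counting interval 4.35 to 7.88), and it was 8.40 between libraries numbered 1 and 4.03 between those numbered 2. Lif averaged 2.15 ± 0.226 CPM in untreated KO cells and 0.970 ± 0.241 CPM in untreated WT cells, a log2 change of 0.68 ± 0.090 (SE; limma adjusted p = 0.00124). Lif and its receptor gene Lifr were thus both higher in the untreated KO line, at levels that stayed below 5 CPM. Il6st was lower, at 74.9 ± 3.41 CPM in untreated KO cells and 105 ± 1.63 CPM in untreated WT cells (log2 change -0.48 ± 0.065, limma adjusted p = 0.00141).

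For the other members no difference was detected before LPS. The log2 change of Il6ra was -0.06 (95% interval -0.24 to 0.12), that of Osm -0.05 (-0.41 to 0.31) and that of Il6 -0.02 (-0.55 to 0.52), with limma adjusted p of 0.824, 0.936 and 0.989. With 5 reads in KO and 6 in WT cells, the ratio of means of Il6 was 0.849 with a 95% counting interval of 0.205 to 3.33. The call on Lifr could not be repeated without either untreated KO library, since the gene then missed the filter on low values. Under the deposited scaling all genes called were 324 higher and 1026 lower, in place of 470 and 585; the 3 members called kept their calls and directions under it.

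After LPS, KO and WT cells differed in Lif, Osm and Il6st, where 13.9% of all genes were called (6.19% higher, 7.66% lower). Osm averaged 27.9 ± 3.80 CPM in KO LPS cells and 10.8 ± 1.05 CPM in WT LPS cells (SD, n = 2 each), 2.60-fold higher in KO. Its log2 change was 1.295 ± 0.162 (SE; limma adjusted p = 0.000689), which ranked 57 of 10899. Lif averaged 1555 ± 52.2 CPM in KO LPS cells and 805 ± 0.668 CPM in WT LPS cells, 1.93-fold higher in KO (log2 change 0.95 ± 0.090, limma adjusted p = 0.000134). The neighbours Lif and Osm were thus both higher in KO cells after LPS, and Lif also before it. Il6 averaged 39.6 ± 7.90 CPM in KO LPS cells and 29.4 ± 6.72 CPM in WT LPS cells. Its log2 change was 0.42 with a 95% interval of -0.11 to 0.96, which missed the threshold (limma adjusted p = 0.322, or 0.0541 with the replicate number as a block). With the block the interval was 0.09 to 0.76. The ratio was 1.33 between libraries numbered 1 and 1.38 between those numbered 2.

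Il6st was 0.814 of its WT level in KO LPS cells, a log2 change of -0.29 ± 0.065 (SE; limma adjusted p = 0.0159). The call was lost when only these groups were fitted (limma adjusted p = 0.0967), without KO LPS replicate 1 (-0.24, limma adjusted p = 0.118) and without WT LPS replicate 2 (-0.26, limma adjusted p = 0.104). For Il6ra the log2 change was 0.06 (95% interval -0.12 to 0.24) and for Lifr 0.07 (-0.26 to 0.41), with limma adjusted p of 0.757 and 0.843. Under the deposited scaling the change of Il6ra was -0.0023, and all genes called were 514 higher and 1082 lower in place of 675 and 835.

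Whether LPS acted differently in the lines was tested as the interaction of genotype and LPS, for which 0.413% of all genes were called. Osm was called, with an LPS response larger in KO cells by 1.35 ± 0.23 (SE) on the log2 scale (95% interval 0.83 to 1.86, limma adjusted p = 0.0466, or 7.23e-05 with the replicate block). Lifr was called with a response lower in KO cells by -1.48 ± 0.21 (-1.96 to -1.01, limma adjusted p = 0.0175, or 0.000695 with the block). That gene passed the filter on low values only through untreated KO cells, which favoured the call. The Osm call was lost without any 1 library of the 8 other than untreated WT replicate 2, at 1.09 to 1.48. The Lifr call was lost without either KO LPS or either WT LPS library or untreated WT replicate 1, at -1.53 to -1.37, and could not be tested without either untreated KO library. Their directions held in all alternatives, with limma, edgeR or DESeq2 adjusted p up to 0.218 for Osm and 0.111 for Lifr. For Lif the difference between responses was 0.27 on the log2(CPM + 1) scale (95% interval -0.02 to 0.55, limma adjusted p = 0.883) and -0.22 by DESeq2, so its larger level in KO cells after LPS was not shown to be a larger response. The differences for Il6, 0.44 (-0.31 to 1.19), Il6st, 0.19 (-0.01 to 0.40), and Il6ra, 0.11 (-0.14 to 0.37), missed the threshold as well. With the replicate block the intervals of Lif, 0.07 to 0.47, and Il6st, 0.05 to 0.34, left out 0, though neither was called.

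**Figure D3:**
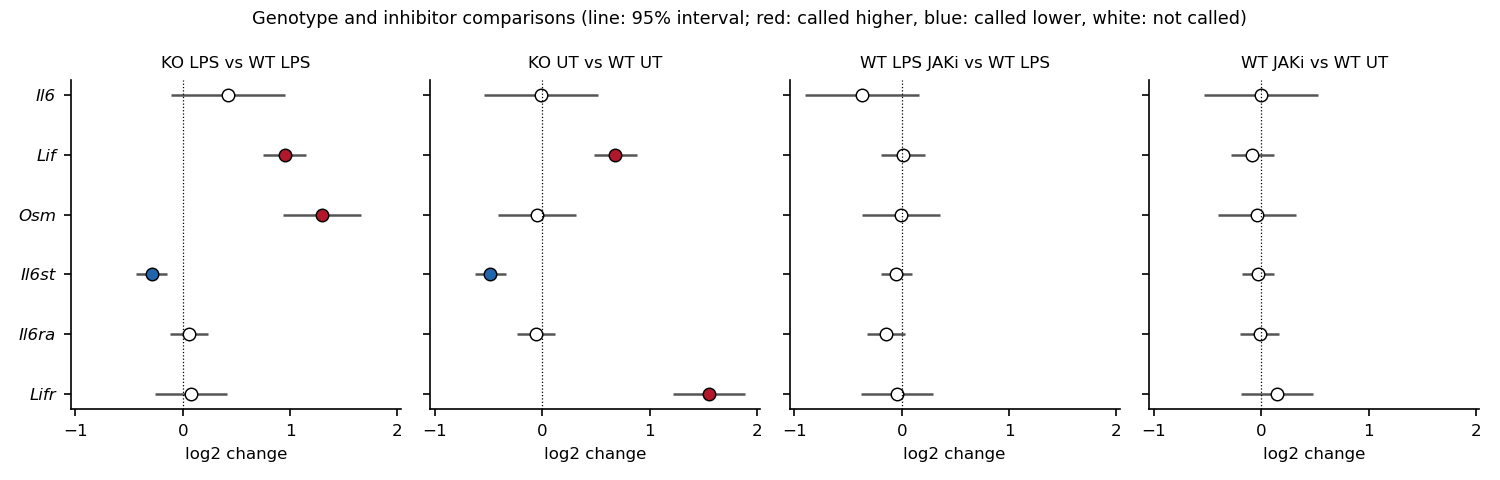
Log2 change of the 6 genes between KO and WT cells after LPS and untreated, and between inhibitor and no inhibitor in WT cells with and without LPS; lines are 95% intervals of the limma fit and filled points were called. Lif and Osm stand right of 0 in KO cells after LPS, and Lif and Lifr right of 0 in untreated KO cells. All inhibitor intervals include 0 in this fit, which has no replicate block.

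The inhibitor comparisons asked how these genes stood when Jak kinases were blocked. No member was called between WT cells with and without inhibitor, either after LPS, where 1.11% of all genes were called, or without LPS, where 0.0% were. With all libraries and no block, none of the 6 reached an unadjusted p under 0.05 in limma. None was called by edgeR or DESeq2. With the replicate block 2 reached that unadjusted level after LPS, Il6 (95% interval -0.71 to -0.04) and Il6ra (-0.29 to -0.0052), and none was called. After LPS, Lif averaged 812 ± 34.8 CPM with inhibitor and 805 ± 0.668 CPM without (SD, n = 2 each), a log2 change of 0.01 with a 95% interval of -0.19 to 0.21. Osm averaged 10.7 ± 0.805 CPM with inhibitor and 10.8 ± 1.05 CPM without (-0.0094, interval -0.37 to 0.35). On the same scale the LPS responses in WT cells without inhibitor were 8.68 for Lif and 1.60 for Osm. Il6 averaged 23.0 ± 8.93 CPM with inhibitor and 29.4 ± 6.72 CPM without, a change of -0.37 whose interval of -0.91 to 0.16 is the widest of the 6. That change rests on single libraries: it was -0.76 without inhibitor and LPS replicate 1 (limma adjusted p = 0.38, from an unadjusted 0.00521) and 0.016 without replicate 2, and -0.15 and -0.60 without WT LPS replicates 1 and 2. Il6st changed by -0.05 (-0.20 to 0.10), Il6ra by -0.15 (-0.33 to 0.03; -0.25 with a limma adjusted p of 0.355, from an unadjusted 0.0183, without inhibitor and LPS replicate 2) and Lifr by -0.04 (-0.38 to 0.29).

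With the inhibitor present, LPS still raised Lif by 8.78, Il6 by 4.43 and Osm by 1.63 and lowered Il6ra by -1.67 and Il6st by -1.11 on the log2 scale, with limma adjusted p from 4.35e-12 to 1.45e-05, where 64.2% of all genes were called (13.5% higher, 50.8% lower). Lifr changed by -0.25 (limma adjusted p = 0.165). No member was called in the interaction of inhibitor and LPS, where 0.587% of all genes were called, and none reached an unadjusted p under 0.05 in limma with all libraries; Il6 did without inhibitor and LPS replicate 1 (-0.76, limma adjusted p = 0.766). By contrast, Parp14 fell with the inhibitor after LPS, at 124 ± 19.7 CPM against 367 ± 73.8 CPM in WT LPS cells (log2 change -1.56, limma adjusted p = 0.00403).

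Most other IL-6 family ligand genes were too scarce to test: 3 of 9 passed the filter. Of these, Il27 and Clcf1 passed through LPS libraries alone, so no count of calls is drawn from the list. Il27, the p28 subunit of IL-27, rose by 5.04 in KO cells and 5.54 in WT cells, its partner Ebi3 by 0.72 and 0.73, and Clcf1, a ligand of the ciliary neurotrophic factor receptor, by 1.22 and 1.04. Clcf1 had 106 reads in KO LPS cells against 1 in untreated KO cells, and 91 in WT LPS cells against 0 in untreated WT cells, so its fitted changes depend on the pseudocount. Ctf2 and Il31 had no reads in any library. After LPS, Il27 averaged 55.1 ± 4.45 CPM in KO cells and 74.7 ± 10.0 CPM in WT cells, a log2 change of -0.43 (limma adjusted p = 0.0204), opposite in sign to those of Lif and Osm. Of 5 other receptor genes only Il11ra1, the alpha chain for IL-11, was tested; its change with LPS was -0.66 in KO cells, which was called, and -0.35 in WT cells, which was not (limma adjusted p = 0.172), and the difference between them was not called.

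Of 11 genes for signal transducers below gp130, 10 were tested and Gab1 had no reads in these 12 libraries. After LPS 3 rose and 5 fell in KO cells (median -0.07), and 3 rose and 3 fell in WT cells (median 0.06). Over all genes tested, 66.7% were called in KO cells (13.9% higher, 52.7% lower, median -0.29) and 67.3% in WT cells (13.7% higher, 53.6% lower, median -0.30), so the number of calls in this list was near the background. The kinase gene Jak2 rose by 2.54 in KO and 2.69 in WT cells and Stat5a by 1.59 and 1.72, while Sos1, which links receptors to Ras, fell by 0.79 and 0.69. Stat3, the main carrier of the IL-6 signal, changed by 0.13 in KO and 0.10 in WT cells, neither called.

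All 15 feedback and STAT3 target genes were tested, of which Socs1, Cish and Fosl1 passed the filter through LPS libraries alone. Of the other 12, after LPS 9 rose and 3 fell in both lines, with a median of 1.58 in KO and 1.60 in WT cells, where 13.9% of all genes were higher and 52.7% lower in KO cells and 13.7% and 53.6% in WT cells. Pim1, a survival kinase, rose by 5.06 in KO and 5.15 in WT cells, Socs3 by 4.96 and 4.70, and Cish, a further SOCS family inhibitor, by 5.05 and 4.39 from 3 reads in untreated KO and 0 in untreated WT cells, while Pias3, an inhibitor of STAT3, fell by 1.66 and 1.60. Socs3 averaged 608 ± 102 CPM in KO LPS cells, 685 ± 117 CPM with inhibitor and LPS and 621 ± 41.4 CPM in WT LPS cells, with overlapping libraries. Between the lines after LPS, the AP-1 gene Fosl1 (1.09), Cish (0.72) and the angiogenic factor Vegfa (0.45) were higher in KO cells. The interleukin-4 receptor gene Il4ra (-0.82), Socs1 (-0.60) and the phosphatase gene Ptpn6 (-0.37) were lower. Il4ra and Ptpn6 were also lower in untreated KO cells, by -0.78 and -0.23. With the inhibitor after LPS, Socs1, an interferon-induced SOCS gene, was the only member of the list called (-0.997, limma adjusted p = 0.00451).

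The shedding genes include Adam17, whose protease releases soluble IL-6 receptor from the cell surface. After LPS, 2 of 4 rose and 1 fell in each line. The number called either way was near the share of all genes called, 66.7% in KO and 67.3% in WT cells. By direction, 13.9% of all genes were higher and 52.7% lower in KO cells, and 13.7% and 53.6% in WT cells. Adam17 rose by 0.77 in KO and 0.67 in WT cells, Rhbdf2, which brings ADAM17 to the surface, by 2.01 and 1.72, and Adam10 fell by 0.65 and 0.56. None of the 4 was called between the lines after LPS, where 13.9% of all genes were, or with the inhibitor after LPS, where 1.11% were. Il6ra mRNA fell in the same libraries in which Adam17 and Rhbdf2 rose, and a link between these changes was not tested.

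Of 12 genes for factors that act on Il6 transcription, 8 rose and 2 fell with LPS in KO cells (median 1.51), and 9 rose and 2 fell in WT cells (median 1.80). Over all genes 13.9% were higher and 52.7% lower in KO cells, and 13.7% higher and 53.6% lower in WT cells. Nfkbiz, the IkB zeta needed for Il6 induction in mouse macrophages, rose by 6.43 in KO and 6.55 in WT cells, and the NF-kB subunit gene Rel by 3.40 and 3.19. The AP-1 genes Fos and Jun fell, by 2.41 and 1.36 in KO cells and by 2.51 and 1.81 in WT cells. Other AP-1 genes, counted above among the STAT3 targets, rose: Junb by 2.94 in KO and 2.72 in WT cells, and Fosl1 by 2.47 and 1.60. Between the lines after LPS, Jun was higher in KO cells (1.15, limma adjusted p = 0.0204) and Irf1, an interferon-responsive factor, was lower. Irf1 averaged 26.0 ± 0.461 CPM in KO LPS cells, 26.4 ± 4.84 CPM with inhibitor and LPS and 89.1 ± 8.86 CPM in WT LPS cells. Set against the same WT LPS libraries, its log2 change was -1.74 in KO cells (limma adjusted p = 3.2e-05) and -1.72 with the inhibitor (limma adjusted p = 0.000154). Untreated, Irf1 averaged 23.8 ± 0.596 CPM in KO cells and 26.4 ± 2.83 CPM in WT cells. Il6, Lif and Osm were also induced in the groups where Irf1 mRNA stood near its untreated level. Any part of Irf1 in their induction was not tested.

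Of 8 genes for proteins that control the stability of Il6 mRNA, 5 rose and 0 fell with LPS in KO cells (median 0.99), and 6 rose and 1 fell in WT cells (median 0.96). The shares of all genes called either way were 66.7% in KO cells (13.9% higher, 52.7% lower) and 67.3% in WT cells (13.7% higher, 53.6% lower). Zc3h12a, the RNase regnase-1 that degrades Il6 mRNA, rose by 4.45 in KO and 4.09 in WT cells, and Zfp36, tristetraprolin, by 2.25 and 2.21. Arid5a, which stabilises Il6 mRNA, fell in WT cells by 0.66 and averaged 4.41 ± 0.610 CPM in KO LPS cells and 2.50 ± 0.0553 CPM in WT LPS cells. That difference, 0.62 on the log2 scale, missed the threshold (limma adjusted p = 0.0564). None of the 8 was called between the lines after LPS, where 13.9% of all genes were.

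**Figure D4:**
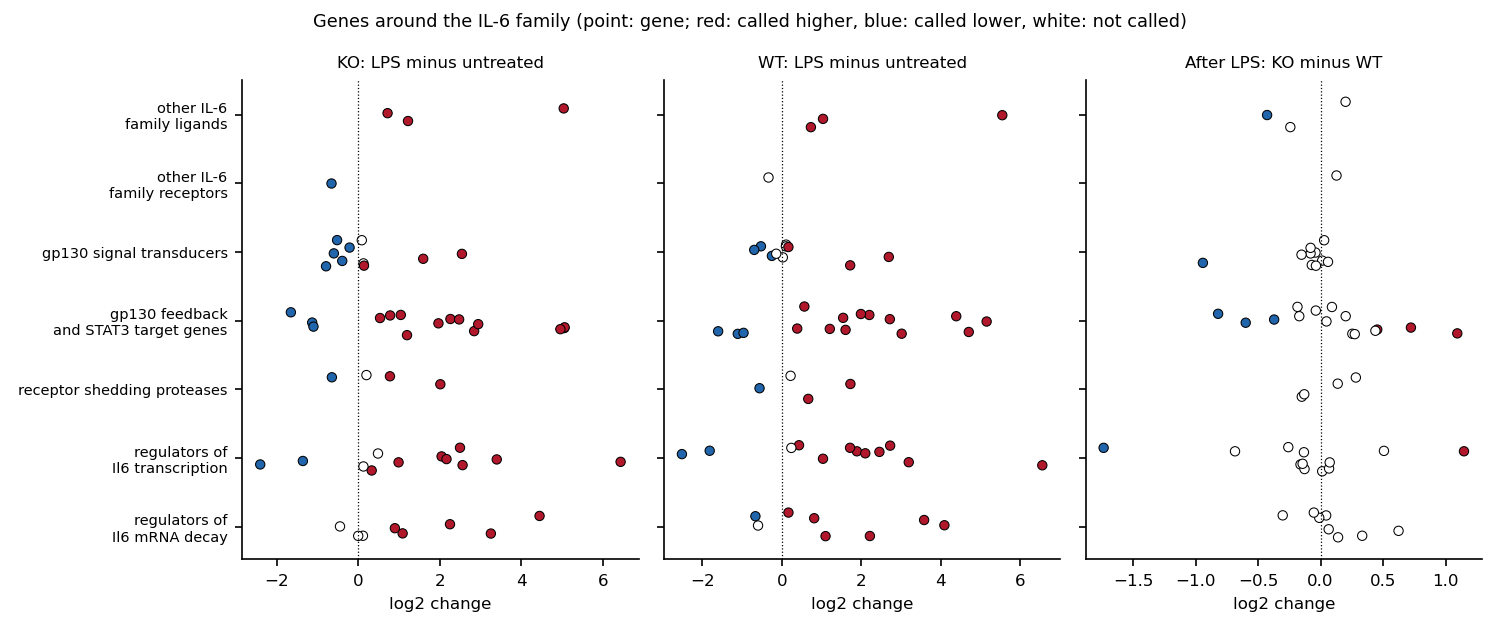
Log2 change of each tested gene in 7 lists around the IL-6 family, in KO cells with LPS, in WT cells with LPS and between KO and WT cells after LPS; red points were called higher, blue lower and white were not called. The LPS panels look alike, and the right panel, with a narrower axis, holds few filled points, among them Irf1 at -1.74 and Jun at 1.15.

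The genes closest in pattern to each member over the 12 libraries were ranked by the root mean square difference of centred log2(CPM + 1), among 9217 genes. For Il6 these were the phosphatase gene Dusp5 (0.20), Cish (0.23) and Phlda1 (0.29), with Pearson r from 0.994 to 0.997. Like Il6, each had its highest mean in KO LPS cells, for example 77.3 CPM for Dusp5, 48.8 CPM with inhibitor and LPS and 51.1 CPM in WT LPS cells. For Lif the closest were Cxcl2 (0.28), Il1b (0.48) and Irg1 (0.73), and only Cxcl2 shared its higher level in KO LPS cells, at 3127 CPM against 2325 CPM in WT LPS cells. For Osm they were Lcn2 (0.22), Trim13 (0.25) and Agpat9 (0.25). Il6ra had the closest match of all, Il17ra (0.065), a cytokine receptor gene at 57.2 CPM in KO LPS cells and 159 CPM in untreated KO cells, and 57.4 CPM in WT LPS cells and 165 CPM in untreated WT cells. Il6st was close to Fam120c (0.0695) and Oma1 (0.0749), and Lifr to Gja1, Cc2d2a and Serpinb12 (0.26 to 0.31), with a lower r of 0.865 to 0.899. These measures are descriptions, since the libraries share their treatment groups.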

How the data were processed

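Messenger RNA was sequenced from 12 libraries in 6 groups of 2. The authors deposited CPM values by gene symbol, which they made with TopHat2 2.1.0, HTSeq and edgeR on mm10 or GRCm38, per the submitters' processing notes; their filters and any use of strand are not stated. The deposited CPM of a library sum over genes and 5 HTSeq summary lines together; 28.6 to 34.9% of alignments had no unique position, 5.00 to 6.37% no feature and 0.994 to 1.13% were ambiguous. In each library 100.0% of values were whole reads within 0.02 once multiplied out. A further 4 per-sample columns matched no label and were not used.

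CPM were rescaled to the 35940669 to 45662896 gene reads. The 10899 genes that reached 1 CPM in 2 or more libraries entered the test. It was limma 3.58.1 (R 4.3.3), trended, on log2(CPM + 1), as a fit of 6 group means over all libraries (6 residual and 3.54 prior degrees of freedom), adjusted by Benjamini-Hochberg within each of 9 comparisons at a threshold of 0.05. Fold changes on this scale understate changes of low genes, so ratios of mean CPM are given with exact counting intervals at 95%. The code was tested on simulated data. Other settings tried were the 5 CPM filter, no filter, a 0.25 pseudocount, median of ratios, the deposited scaling, a replicate block, only the groups compared, each library left out, and the count tests of edgeR 4.0.16 and DESeq2 1.42.0 on the recovered reads. Between KO and WT cells after LPS, edgeR called 1511 genes and DESeq2 1682, against 1510 for limma; before LPS they called 1009 and 1234, against 1055. In WT cells with LPS they called 6474 and 6543, against 7332, and in KO cells 6516 and 6500, against 7266.

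The labels name no separate cultures, so a p-value here reflects the spread between samples that may be technical replicates only. Replicate numbers come from the labels. Across genes, replicate 1 minus replicate 2 was correlated for each of the 15 group pairs (r 0.468 to 0.737), so numbers were read as a pairing. The main fit and its intervals leave that pairing out, and among the fits only the replicate block uses it. Replicates had a Pearson r of 0.995 to 0.997, and differed by more than sampling noise. Positions and exon lengths came from GENCODE M21 and promoters from RefSeq (5 of 6 members matched, not Osm). The members, lists and tests were chosen with earlier results of these data known. Genes named were the 6 members, Parp14, from each list up to 4 members with the largest changes among those called and those needed as background, and for each member the 3 genes most alike in pattern with a mean of at least 5 CPM in a group. Some of the genes these rules name are not reported here.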

Additional observations from a re-analysis of the deposited data

Results flagged for a closer look

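The LPS response of Osm differed between the lines by 1.35 on the log2 scale, larger in KO cells, by the test of the interaction of genotype and LPS (SE 0.23, limma adjusted p = 0.0466). Osm was 10.4-fold higher with LPS between KO libraries numbered 1 and 9.85-fold between those numbered 2, against 3.17-fold and 4.46-fold in WT cells. The call held in 5 of 17 alternatives and the direction in all 17.

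The LPS response of Lifr differed between the lines by -1.48, lower in KO cells, by the same test (SE 0.21, limma adjusted p = 0.0175). Lifr passed the filter on low values only through untreated KO cells, which favoured this call. Lifr fell to 0.160 and 0.190 of its untreated level in the KO pairs, while the WT pairs gave 1.18 and 0.680. The call held in 7 of 14 alternatives and the direction in all 14. The difference lay in the untreated libraries, with 187 and 127 reads in KO cells and 22 and 33 reads in WT cells.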

How the results depend on the processing

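Among member results that were called, 289 values under the alternatives kept direction and call, 22 kept direction only and 0 turned. The count of members called in the interaction of genotype and LPS, 2, became 0 with a pseudocount of 0.25, with the 5 CPM filter and by edgeR, 1 without the filter and with only the groups compared, and 0 to 2 when a library was left out; it was 2 by DESeq2, with the median of ratios, the deposited scaling and the replicate block. The 5 CPM filter and leaving out an untreated KO library removed Lifr from the test; otherwise the cause was not tested. The replicate block changed no call of a member in any comparison. With the block, 24.6% of all genes were called between untreated KO and WT cells in place of 9.68%, 31.5% after LPS in place of 13.9%, 3.79% in the interaction in place of 0.413%, 4.09% for inhibitor with LPS in place of 1.11% and 2.92% in the inhibitor interaction in place of 0.587%. For the inhibitor alone, where limma called 0 genes at an adjusted p under 0.05 and 111 at an unadjusted one, the block called 4, DESeq2 2 and edgeR 0. The genotype interaction had 45 calls by limma, 10 by edgeR and 80 by DESeq2. Fits of only the groups compared called 868 genes between KO and WT cells after LPS in place of 1510, and leaving out a library moved that count to 868 to 921.

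Values that turned sign were all of results not called. Lifr with LPS in WT cells, -0.07, became 0.0442 (median of ratios), 0.13 (edgeR) and 0.15 (DESeq2). The genotype interaction of Lif, 0.27, became -0.036 (pseudocount 0.25), -0.21 (edgeR) and -0.22 (DESeq2). Lif with inhibitor and LPS, 0.01, became -0.0096 (median of ratios), -0.002 (edgeR) and -0.0083 (DESeq2). Under the deposited scaling, Il6ra between KO and WT cells after LPS became -0.0023, Il6 with inhibitor alone -0.0005, Osm with inhibitor and LPS 0.0246 and Il6st in the inhibitor interaction 0.0224. The causes were not tested. With a library left out, the ranges were as follows. Lifr with LPS in WT cells ranged from -0.1822 to 0.0459. Between untreated KO and WT cells, Il6 ranged from -0.0496 to 0.0194, Osm from -0.3055 to 0.2041 and Il6ra from -0.1213 to 0.0059. For the inhibitor alone, Il6 ranged from -0.0345 to 0.0345, Lif from -0.2091 to 0.0415, Osm from -0.297 to 0.2126 and Il6ra from -0.078 to 0.0492. For inhibitor with LPS, Il6 ranged from -0.7617 to 0.0156, Lif from -0.0316 to 0.0558, Osm from -0.1002 to 0.0814, Il6st from -0.1052 to 0.0033 and Lifr from -0.1616 to 0.0782. In the inhibitor interaction, Il6 ranged from -0.7617 to 0.0156, Lif from -0.0294 to 0.2212, Osm from -0.222 to 0.2877 and Il6st from -0.0757 to 0.0328.

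Depth limits Il6 without LPS most, with 5 reads in untreated KO cells and 6 in untreated WT cells.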

Other observations

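Il27ra, the receptor chain for IL-27 that pairs with gp130, was too scarce for the test and was picked after its values were seen. It had 50 reads in KO LPS cells and 46 in untreated KO cells. It had 14 reads in WT cells with inhibitor and LPS, 12 in WT LPS cells, 8 with inhibitor alone and 12 in untreated WT cells. KO libraries held 0.575 to 0.696 CPM and WT libraries 0.0515 to 0.233 CPM. How many of all genes separate the lines in this way was not counted.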
